A study of Mus musculus with 12 samples.

Results

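The 7 genes described here mark amacrine cells, the inhibitory interneurons of the inner retina. Tfap2a, Tfap2b and Ptf1a encode transcription factors of amacrine cell development. Gad1 and Gad2 encode the enzymes that make the inhibitory transmitter GABA, Slc6a9 encodes the glycine transporter GlyT1, which is found on glycinergic amacrine cells, and Chat encodes the enzyme that makes acetylcholine in starburst amacrine cells. The genes were taken by name. The locus of each was its annotated gene on the mm10 mouse genome with 5 kb added on each side, and a region belonged to the locus if it overlapped it by at least 1 bp. The 7 genes are among 21938 protein-coding genes examined in the same way. Their loci held 52 of the 193836 regions that the authors listed as differing in whole-genome bisulfite sequencing (WGBS) and 88 of the 592906 regions listed as differing in bACE-seq.

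The study compared retina from mice that lack the TET enzymes in retinal progenitors and their progeny with control retina. The Tet tcKO mice carry floxed alleles of Tet1, Tet2 and Tet3 and the Chx10-Cre-GFP transgene, which acts in retinal progenitor cells, whereas the Cre- controls, labelled wild type, came from breeders without Cre. All retinas were whole tissue taken at P21 from the C57 BL/6J strain, and each group had 3 WGBS and 3 bACE-seq libraries, 12 libraries in all. The paper states that DNA came from retinas pooled from 2 animals, and that both assays used DNA of the same extractions. The 2 assays are thus not independent sets of retinas. The methods of the study describe the Cre transgene as mosaic, so that Cre+ animals were crossed among themselves. The 2 lists give 1 mean level per group and region, with no value per library and no read coverage. The spread between libraries and the depth behind each level are therefore unknown, and no difference below could be tested. Amacrine cells are a minority of retinal cells, and a level in whole retina is an average over all cell types. A change of level within a cell type therefore cannot be told apart from a change in its share of cells. The paper reports more cone and fewer rod photoreceptors in Tet tcKO retina, and small increases in amacrine cell proportions. It also reports fewer horizontal cells, and more bipolar cells, Müller glia and microglia. How far these shifts alter the levels here was not tested. The lists hold no expression values, and the cell type could not be checked against markers. In its bulk RNA-seq the paper reports no statistically significant change of the Tfap2a transcript.

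DNA methylation in vertebrates sits mostly on the C of a CG dinucleotide (CpG), as 5-methylcytosine (5mC). TET enzymes oxidise 5mC to 5-hydroxymethylcytosine (5hmC) and further, a path by which methylation can be removed, and neurons are known to be rich in 5hmC. WGBS reads 5mC and 5hmC alike, whereas bACE-seq reads 5hmC alone. A WGBS gain is used below for a listed region with a higher level in Tet tcKO than in Cre-, and a 5hmC loss for a region of the bACE-seq list with a lower level in Tet tcKO. Levels are percentages of modified cytosine averaged over the CpGs of a region, which the authors smoothed along the genome, so that neighbouring CpGs share part of their value, and differences between them are in percentage points.

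The reference sequence is shown for the middle of the WGBS region with the largest difference at Tfap2a, Gad1, Gad2 and Chat, and for the part of a region just before the Slc6a9 start that had the same boundaries in both lists, so that the spacing of the measured CpGs can be seen. Each is read 5′ to 3′ on the plus strand of mm10, with CpGs in capitals. The stretches are chr13:40718778-40719077 for Tfap2a, chr2:70571718-70571932 for Gad1, chr2:22628962-22629261 for Gad2, chr14:32421258-32421557 for Chat and chr4:117834002-117834301 for Slc6a9. The first 4 lie in introns, and the Slc6a9 stretch lies upstream of the gene. They hold 4, 4, 1, 4 and 5 CpGs.
Tfap2a: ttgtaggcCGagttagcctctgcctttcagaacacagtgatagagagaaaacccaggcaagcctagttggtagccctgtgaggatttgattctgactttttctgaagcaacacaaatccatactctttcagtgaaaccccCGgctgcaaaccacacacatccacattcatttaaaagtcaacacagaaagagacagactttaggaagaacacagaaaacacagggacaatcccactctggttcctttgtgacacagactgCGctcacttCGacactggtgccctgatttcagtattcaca
Gad1: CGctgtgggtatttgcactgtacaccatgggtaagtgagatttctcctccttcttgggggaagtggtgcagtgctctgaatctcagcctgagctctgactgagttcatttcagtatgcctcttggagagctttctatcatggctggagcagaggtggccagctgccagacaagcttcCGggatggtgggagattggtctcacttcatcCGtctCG
Gad2: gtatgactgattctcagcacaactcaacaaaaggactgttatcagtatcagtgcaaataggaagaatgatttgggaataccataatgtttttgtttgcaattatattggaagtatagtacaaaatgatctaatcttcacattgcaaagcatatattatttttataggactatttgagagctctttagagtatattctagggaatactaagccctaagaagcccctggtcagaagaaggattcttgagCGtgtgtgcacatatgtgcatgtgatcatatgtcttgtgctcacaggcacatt
Chat: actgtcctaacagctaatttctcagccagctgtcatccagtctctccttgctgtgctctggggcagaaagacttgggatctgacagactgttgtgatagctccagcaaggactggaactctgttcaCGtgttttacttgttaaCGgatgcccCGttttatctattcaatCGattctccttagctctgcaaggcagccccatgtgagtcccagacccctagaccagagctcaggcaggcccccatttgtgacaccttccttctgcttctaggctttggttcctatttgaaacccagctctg
Slc6a9: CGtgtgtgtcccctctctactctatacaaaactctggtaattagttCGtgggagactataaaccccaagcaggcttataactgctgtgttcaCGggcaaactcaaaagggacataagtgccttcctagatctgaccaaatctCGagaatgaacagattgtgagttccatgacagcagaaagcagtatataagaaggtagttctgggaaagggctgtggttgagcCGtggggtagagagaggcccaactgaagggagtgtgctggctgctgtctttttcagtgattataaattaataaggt

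The Gad2 stretch comes from a region of 880 bp with 5 CpGs, and the Slc6a9 stretch from a region of 16 CpGs. The corresponding window at Slc6a9 for its region of largest difference overlaps untranslated exons of Ccdc24 and B4galt2 and is not shown. AP-2 proteins, the family of Tfap2a and Tfap2b, bind the palindromic letters GCCNNNGGC. None of the 5 stretches above holds them, whereas the Slc6a9 window that is not shown holds them 1 time. The 300 bases centred on the region held this motif in 7 of the 52 WGBS gains at the 7 loci (13.5%) and in 8.77% of the 191164 WGBS gains of the whole list. Where a gain is shorter than 300 bp, such as that of 55 bp at Tfap2a, part of this window lies outside it.

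Every listed region at the 7 loci pointed the way of its list. All 52 WGBS regions were higher in Tet tcKO, as were 191164 of the 193836 in the whole list, and all 88 bACE-seq regions were lower, as were 592697 of 592906. At 5 genes, Tfap2a, Gad1, Gad2, Slc6a9 and Chat, there was at least 1 WGBS gain, and at 6, all but Tfap2b, at least 1 5hmC loss. Over all protein-coding genes, 76.8% had a WGBS gain and 88.3% had a 5hmC loss in a locus of this kind, so these counts of genes are near the background. Averaged over CpGs, the WGBS gains stood at 51.8% in Cre- and 67.9% in Tet tcKO, a difference of 16.2 points. The 5hmC losses stood at 16.9% and 4.34%, so that 25.6% of the Cre- level was left. Part of what was left may be unconverted cytosine. The values just given pool the regions of all 7 loci, so genes with more listed CpGs weigh more. Averages taken per gene had medians, over all genes with such regions, of 57.2% and 75.4% in WGBS. In bACE-seq these medians were 14.6% and 3.43%. Slc6a9 raised the pooled 5hmC level. Without it the losses stood at 11.2% in Cre- and 2.65% in Tet tcKO, and each of the other 5 genes with losses, at 8.25% to 12.8% in Cre-, was below the median of all genes. The WGBS gains without Slc6a9 stood at 46.6% and 59.6%, a difference of 12.9 points.

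**Figure D1:**
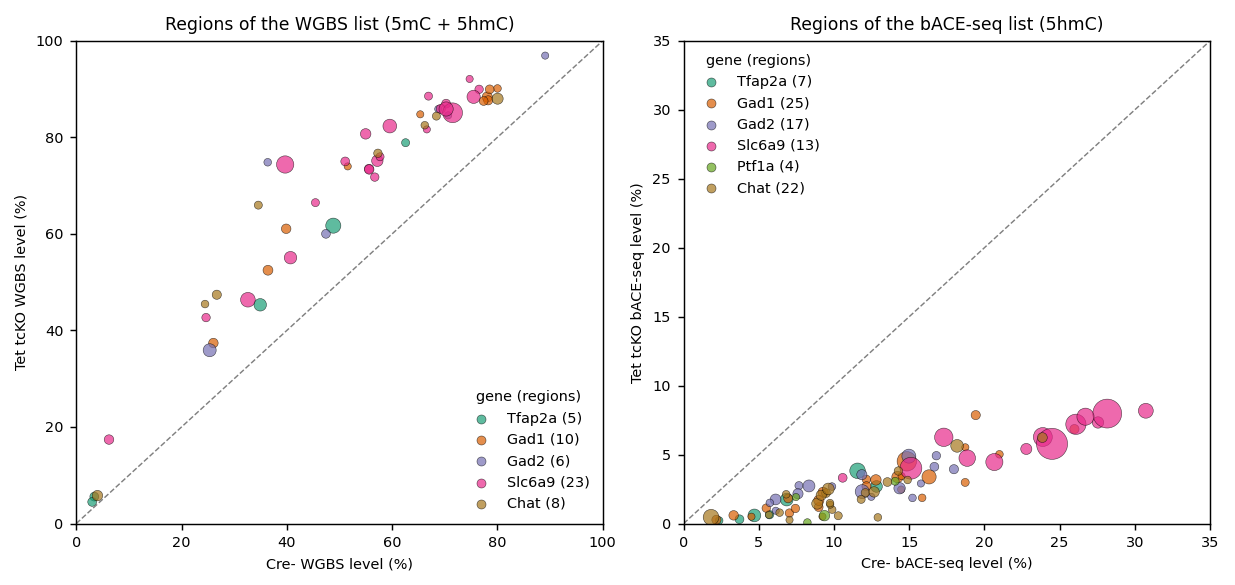
Each point is a listed region at 1 of the 7 genes, placed by its group mean level in Cre- (x axis, %) and Tet tcKO (y axis, %), with WGBS on the left and bACE-seq on the right, on different scales. Colours mark genes, the area of a point grows with its number of CpGs, and the dashed line marks equal levels. All 52 WGBS regions lie above the line and all 88 bACE-seq regions lie below it.

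The genes differed in how much of the locus was listed. The share of locus CpGs within WGBS gains was 39.0% at Slc6a9, 8.98% at Gad1, 8.27% at Chat, 8.11% at Tfap2a, 7.29% at Gad2, and 0 at Tfap2b and Ptf1a. Slc6a9 stood at percentile 98.9 of all protein-coding genes in this share, whereas Gad1, Chat, Tfap2a and Gad2 lay between the gene median of 6.18% and the 75th percentile of 12.4%. The share within 5hmC losses was 75.6% at Slc6a9, 28.8% at Gad1, 28.1% at Gad2, 25.7% at Chat, 12.4% at Tfap2a, 9.09% at Ptf1a and 0 at Tfap2b. Here Slc6a9 stood at percentile 97.1, and the other 6 genes were below the gene median of 37.2%. Slc6a9 decided the pooled values. With it, 12.3% of the CpGs of the 7 loci were in WGBS gains and 29.1% in 5hmC losses, and without it 6.44% and 19.0%.

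**Figure D2:**
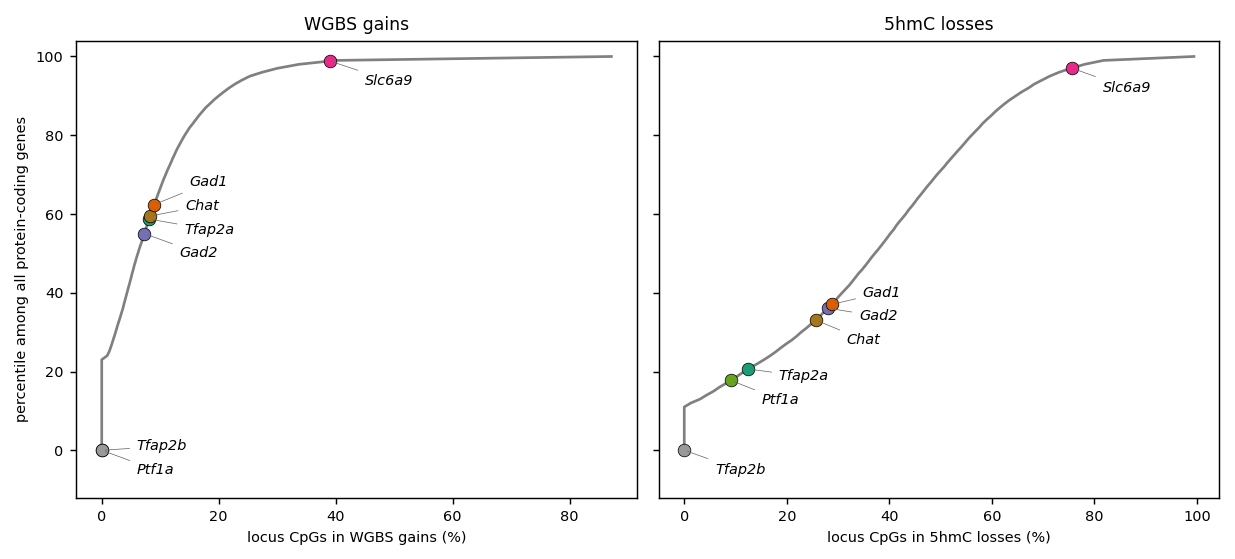
The share of locus CpGs in WGBS gains (left, x axis, %) and in 5hmC losses (right, x axis, %) is set against its percentile among 21938 protein-coding genes, counted as the share of genes with a lower value. The grey line is all genes and the points are the 7 amacrine cell genes. Slc6a9 sits at 39.0% and 75.6%, near the top of both curves, and Tfap2b sits at 0 in both.

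Tfap2b and Ptf1a, the transcription factors without a WGBS gain, differed from each other in bACE-seq. The locus of Tfap2b (chr1, gene at 19208914 to 19238576, plus strand) holds 593 CpGs and had no region in either list. Of all protein-coding genes, 10.9% had none. The nearest WGBS gain lay 6570 bp past its 3′ end, where 4 CpGs stood at 29.2% in Cre- and 58.9% in Tet tcKO, and upstream the nearest lay 62833 bp away. The nearest 5hmC losses lay 5831 bp past the 3′ end, at 10.7% and 2.91%, and 24227 bp upstream. A stretch outside the lists may have failed the authors' p-value threshold or minimum size, or lacked coverage, and the lists do not tell these apart.

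Ptf1a, which is needed for amacrine and horizontal cell fates, is a gene of 1839 bp on chr2 (19445663 to 19447501, plus strand). It had 4 short 5hmC losses and all lay in the flanks. They stood at 8.23% in Cre- and 0.0749% in Tet tcKO over 5 CpGs at −4284 to −3982 bp from the start, at 14.1% and 3.06% over 6 CpGs at −2049 to −1409 bp, at 9.36% and 0.572% over 13 CpGs at 3307 to 4277 bp after the start, and at 7.47% and 1.92% over 4 CpGs at 5995 to 6079 bp after it. The loss closest to the start was thus the one with the highest level in both groups. Averaged over CpGs, Ptf1a kept 12.2% of its Cre- level in these regions, against a median of 23.6% and a 10th percentile of 18.4% over all genes with 5hmC losses. These 4 regions hold 28 CpGs in all, and the coverage behind them is unknown. At levels this low in Tet tcKO, unconverted cytosine could make up part of the value, so the share kept is uncertain. The listed regions nearest the CpG-densest 500 bp window, at 500 to 1000 bp, ended at −1409 bp and began at 3307 bp. The stretch between them, without a region by this choice, contains the whole gene and 206 CpGs. The nearest WGBS gains lay 11241 bp upstream and 12827 bp past the 3′ end.

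Tfap2a (chr13, 40715302 to 40738376, minus strand), active in amacrine and horizontal cell precursors, was the only transcription factor of the 7 genes with WGBS gains. Of its 5 gains, 2 followed the annotated 5′ end closely in an intron. Further coding transcripts start 3456, 4401, 4553, 7933 and 9432 bp into the gene. At 688 to 1173 bp (chr13:40737203-40737688, 20 CpGs) Cre- retina stood at 34.9% and Tet tcKO retina at 45.3%, and at 1810 to 2515 bp (chr13:40735861-40736566, 31 CpGs, the most of any gain at the gene) they stood at 48.8% and 61.7%. The same intronic stretches held 5hmC losses, from 6.85% to 1.74% at 740 to 1591 bp and from 11.6% to 3.82% at 1810 to 2647 bp. The largest WGBS difference, 16.3 points, lay over 6 CpGs at 19291 to 19607 bp (62.6% and 78.9%), in an intron that is partly shown above, and overlapped the largest 5hmC difference of the gene, from 12.8% to 2.69% over 17 CpGs. The other 2 gains sat at very low levels, 3.43% and 5.57% at 7812 to 7873 bp and 3.03% and 4.47% at 15272 to 15326 bp, in CpG-dense parts of the gene. The gain at 7812 to 7873 bp lies just before the coding start at 7933 bp. Cytosines that escape bisulfite conversion also read as modified, and their share was not analysed here. Upstream of the start, where WGBS had no region, bACE-seq had losses from 3.71% to 0.310% at −2071 to −1821 bp and from 4.70% to 0.588% at −4065 to −3588 bp.

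Gad1, which encodes GAD67, had 10 WGBS gains and 25 5hmC losses on chr2 (70553072 to 70602014, plus strand). The annotated gene begins with a noncoding transcript, and its coding transcripts start 8970, 9124 and 9827 bp further in. Those starts lay in the CpG-densest part of the locus. The nearest listed regions around it ended at 7294 bp and began at 13339 bp, with 259 CpGs between them. The WGBS gains began at 16654 bp and ran through the rest of the gene body. Their Cre- levels spread from 26.0% to 80.0%. The gain with the most CpGs, 12 at 28110 to 28619 bp, stood at 78.1% in Cre- and 88.3% in Tet tcKO, and the gain with the largest difference stood at 51.6% and 74.0% over 4 CpGs at 18646 to 18859 bp (chr2:70571718-70571931). The 10 gains thus held both nearly full and partly modified stretches, and the median difference was 11.4 points.

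The 5hmC losses of Gad1 covered 28.8% of its CpGs and lay on both sides of the CpG-dense stretch. Before it, the 2 losses within 2 kb of the annotated 5′ end went from 6.95% to 1.82% (−816 to −577 bp) and from 7.03% to 0.760% (1866 to 2309 bp), where the antisense gene Gad1os is also annotated. After it, the loss with the most CpGs, 54 at 26664 to 29178 bp, went from 14.8% to 4.51%, and the largest difference was from 26.0% to 6.85% over 9 CpGs at 35011 to 35411 bp. No WGBS gain lay within 2 kb of the annotated 5′ end or of a coding start of Gad1.

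Gad2, which encodes GAD65, is a longer and CpG-poorer gene on chr2 (22622205 to 22693874, plus strand) with 6 WGBS gains and 17 5hmC losses. Of its gains, 5 began between 1931 and 13328 bp after the start and the last at 57798 bp. The gain with the most CpGs began 1931 bp after the start (chr2:22624136-22624638, 22 CpGs) and stood at 25.3% in Cre- and 35.9% in Tet tcKO. A further gain at 6467 to 7346 bp had the largest WGBS difference of any region at the 7 genes, 38.5 points, from 36.4% to 74.8%. It holds 5 CpGs over 880 bp, includes 91 bp of coding exon, and overlapped no 5hmC loss. The CpG-densest window, the first 500 bp of the gene, held no listed region. The nearest regions ended 317 bp before the start and began 1931 bp after it, with 125 CpGs between them.

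The 5hmC loss next to the start of Gad2 lay upstream of it, at −1350 to −317 bp, and went from 11.9% to 2.32% over 26 CpGs. A loss with as many CpGs at 2605 to 4164 bp went from 15.0% to 4.89%, and the largest difference was from 18.0% to 3.94% over 9 CpGs at 12905 to 13482 bp. The most upstream 2 of the 17 losses lay over the end of the neighbouring gene Myo3a.

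**Figure D3:**
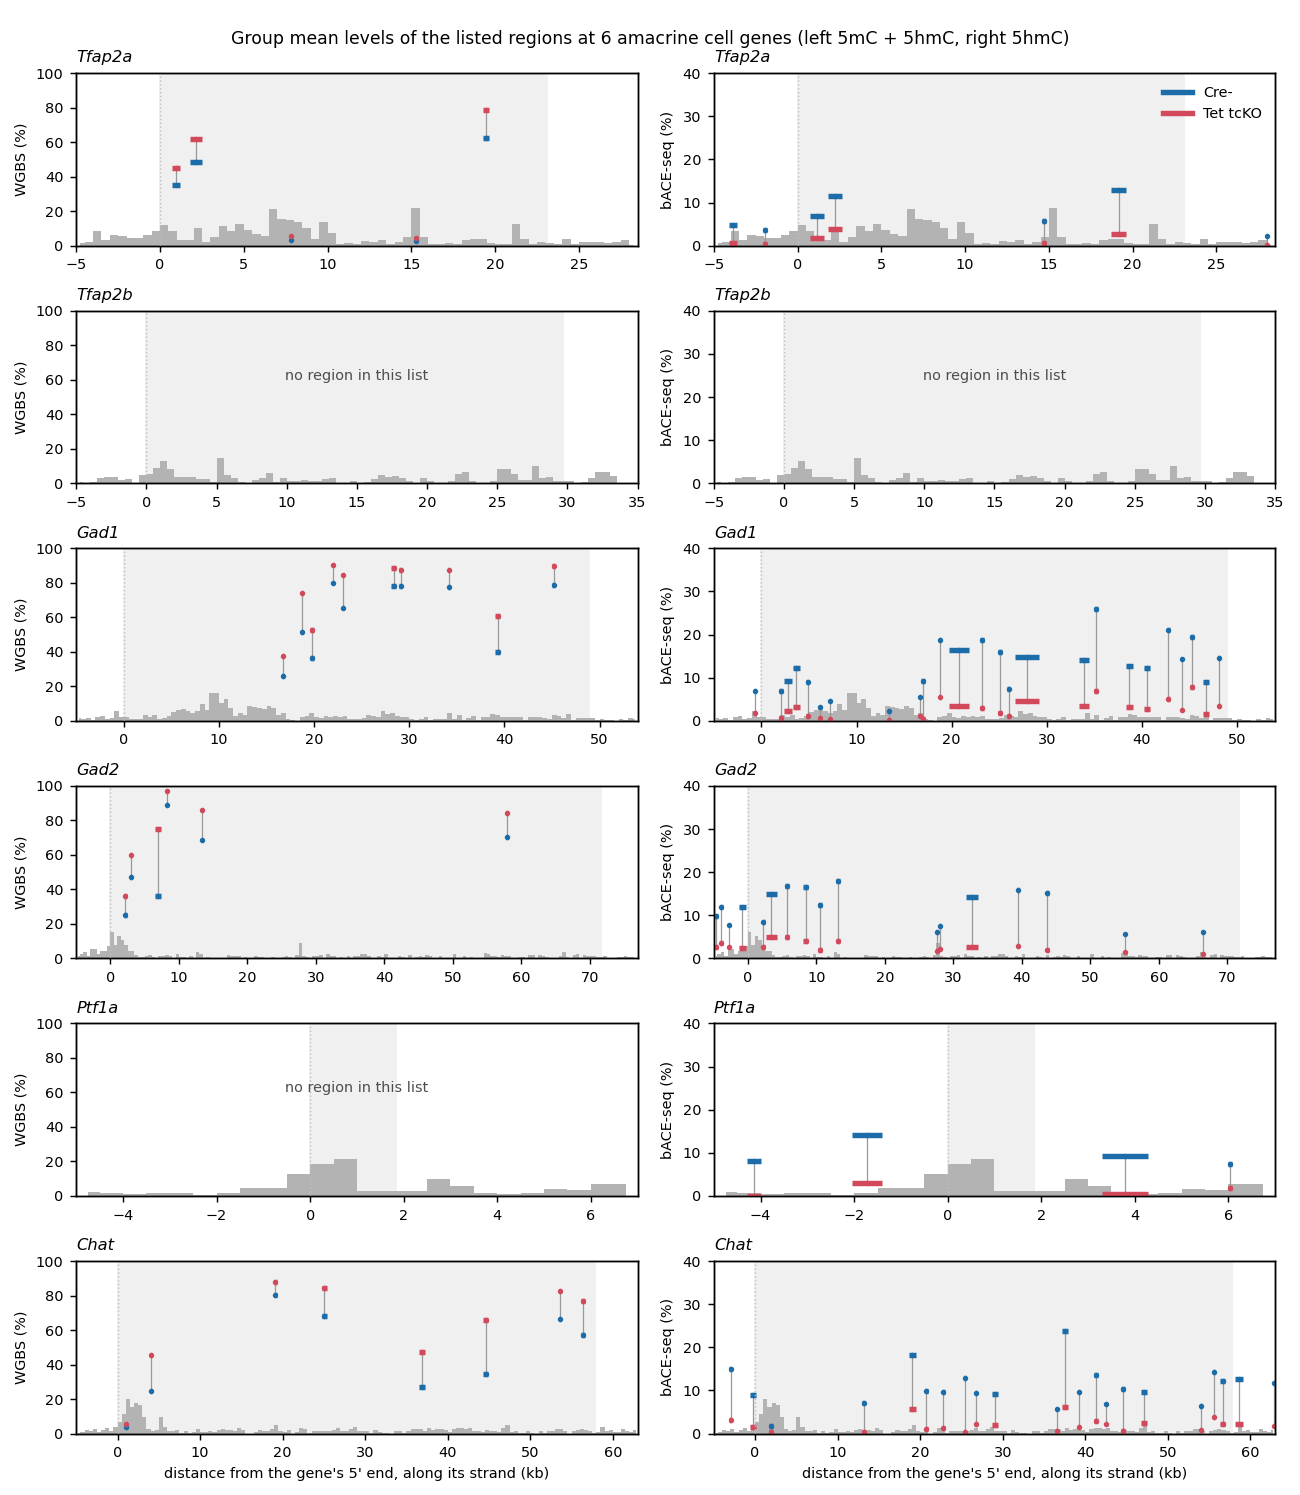
For 6 of the genes, the listed regions are drawn at their distance from the gene's 5′ end along its strand (x axis, kb), at their group mean level (y axis, %) in Cre- (blue) and Tet tcKO (red), with WGBS on the left and bACE-seq on the right on different scales. Grey bars show CpGs per 500 bp on a common scale without an axis, and the shaded span is the gene. Tfap2b has no region in either column and Ptf1a none in WGBS. At Gad1 the listed regions nearest the CpG-densest window end at 7294 bp and begin at 13339 bp, with 259 CpGs between them.

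Slc6a9, on chr4 (117834506 to 117875198, plus strand), had 23 WGBS gains and 13 5hmC losses. In both lists it had the largest share of locus CpGs inside listed regions of the 7 genes. The losses were few because they were long. The longest ran over 9602 bp with 124 CpGs (2580 to 12181 bp after the start) and went from 28.2% to 7.97%, and the one with the most CpGs, 144 at 28655 to 35584 bp, went from 24.5% to 5.78%. At the other 5 genes with losses, the longest was 2515 bp. In exons of Slc6a9 outside the start window, 97.5% of CpGs were in a 5hmC loss and 55.7% in a WGBS gain, and in introns 88.4% and 44.8%.

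The start of Slc6a9 was flanked by listed regions on its upstream side. The region from −680 to −30 bp (chr4:117833826-117834476, 16 CpGs) was listed with the same boundaries in WGBS and in bACE-seq. It stood at 57.2% in Cre- and 75.1% in Tet tcKO in WGBS, and at 27.5% and 7.33% in bACE-seq. Further upstream, a gain at −2868 to −1813 bp stood at 55.0% and 80.7%, inside a 5hmC loss at −3929 to −1453 bp that went from 30.7% to 8.18%, the largest 5hmC difference of the 7 genes. The CpG-densest window, at 1500 to 2000 bp, held no listed region. The nearest regions ended at −30 bp and began at 2580 bp, with 152 CpGs between them. A coding transcript that starts 14864 bp into the gene had a gain over its start, at 14430 to 14923 bp, which stood at 40.7% and 55.1% over 20 CpGs.

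Within the gene body, the gain with the most CpGs, 56 at 20313 to 22764 bp, stood at 71.5% in Cre- and 85.1% in Tet tcKO. The largest difference, from 39.7% to 74.4%, was over 42 CpGs at 34397 to 37878 bp (chr4:117868903-117872384). This region also lies over Ccdc24 and B4galt2, genes on the minus strand that overlap the 3′ part of Slc6a9, so it cannot be assigned to Slc6a9 alone. Of the 661 locus CpGs that lie under neither gene, 36.2% were in WGBS gains and 71.0% in 5hmC losses. The noncoding gene Gm17114 is annotated over much of the gene body and was not taken out of this count. Slc6a9 also had the highest average 5hmC level in Cre- of the 7 genes, 23.5% over the CpGs of its losses, above the 90th percentile of 21.3% over all genes. In Tet tcKO 6.27% was left there, or 26.7% of the Cre- level, close to the 90th percentile of 26.9% of the share left over all genes. Its regions were thus high in 5hmC in both groups.

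**Figure D4:**
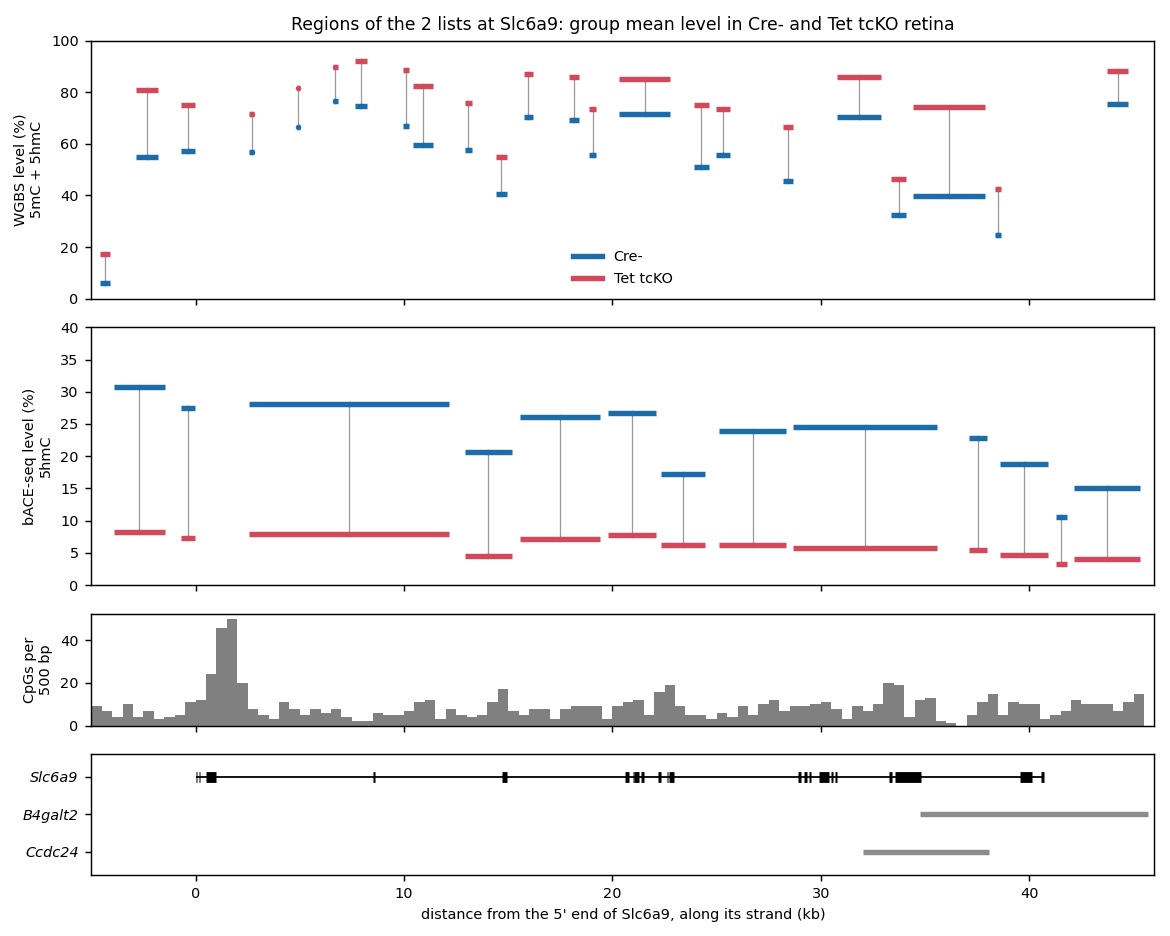
The upper panels show the listed regions at Slc6a9 as bars at their group mean level (y axes, %) in Cre- (blue) and Tet tcKO (red) for WGBS and bACE-seq, against distance from the gene's 5′ end (x axis, kb). The lower panels show CpGs per 500 bp and the genes Slc6a9 (exons as boxes), B4galt2 and Ccdc24. Both lists have regions in the gene body and the upstream flank. The CpG-densest window lies between listed regions that end at −30 bp and begin at 2580 bp.

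Chat (chr14, 32408203 to 32465989, minus strand) had 8 WGBS gains and 22 5hmC losses. Slc18a3, which encodes the vesicular acetylcholine transporter, lies inside the Chat locus near its start, and the CpGs there belong to both genes. A gain just upstream of the Slc18a3 start, at 1005 to 1091 bp of Chat (chr14:32464898-32464984, 13 CpGs), stood at only 4.03% in Cre- and 5.78% in Tet tcKO, and a 5hmC loss within Slc18a3 at 1659 to 2109 bp, with 34 CpGs the most of any loss at the locus, went from 1.82% to 0.458%. The start of Chat itself was covered by a 5hmC loss from −651 to 73 bp, which went from 8.88% to 1.44% over 15 CpGs. The WGBS gain and the 5hmC loss at Slc18a3 were thus low in both groups. The 5hmC loss at the Chat start was nearer the Chat average over losses, 10.5% in Cre-. Other listed regions nearby were higher, a WGBS gain at 3924 to 4140 bp (24.5% and 45.5%) and a 5hmC loss at −3108 to −2779 bp (14.9% and 3.16%).

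The remaining 7 WGBS gains of Chat lay in the gene body and had higher levels. The one with the most CpGs, 15 at 18926 to 19336 bp, stood at 80.0% in Cre- and 88.0% in Tet tcKO, and includes 178 bp of coding exon. The largest difference, 31.4 points, was over 6 intronic CpGs at 44320 to 44843 bp (chr14:32421146-32421669), from 34.6% to 65.9%. In bACE-seq the largest difference was from 23.8% to 6.23% over 11 CpGs at 37180 to 37877 bp, overlapping the end of a WGBS gain at 36560 to 37246 bp that went from 26.7% to 47.4%.

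Within 2 kb of the annotated 5′ end, 4 of the 7 genes (Tfap2a, Gad2, Slc6a9 and Chat) had a WGBS gain and 6, all but Tfap2b, had a 5hmC loss. Over all protein-coding genes the shares were 47.4% and 78.2%. With 1 kb on each side the WGBS count was 2, Tfap2a and Slc6a9. In 500 bp windows with at least 5 CpGs per 100 bp, 4.60% of 1240 CpGs were in a WGBS gain and 4.84% in a 5hmC loss, against 14.8% and 37.0% of the 3811 CpGs elsewhere in the loci. Slc6a9 held 353 of the 563 CpGs in gains elsewhere, and without it the shares in gains were 4.98% in dense windows and 7.00% elsewhere, and those in losses 5.24% and 24.2%. At Gad1, Slc6a9, Ptf1a and Tfap2b such windows held no CpG in either kind of region, and Tfap2b had no region elsewhere either. The single densest window of the locus held no region at these genes and Gad2, and 1 region at Tfap2a and at Chat. Tfap2a was the exception in WGBS, where 9.58% of its 428 CpGs in dense windows were in a gain and 6.78% of its other CpGs. Chat had 16.6% of its dense CpGs in a 5hmC loss, the one within Slc18a3. Low methylation of CpG-dense sequence around start sites is a common feature of mammalian genomes. No comparison of dense windows with all genes was made.

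Both assays could be set side by side where the lists overlapped. A 5hmC loss was overlapped by 43 of the 52 WGBS gains (82.7%), that is by 22 of 23 at Slc6a9, 9 of 10 at Gad1, 5 of 8 at Chat, 4 of 6 at Gad2 and 3 of 5 at Tfap2a. In the whole list 81.1% of WGBS gains did so, so the share at the 7 loci is near the background. Of the 88 losses, 34 (38.6%) overlapped a gain, 12 of them at Slc6a9, beside 24.1% in the whole list. Over these gains WGBS gave 55.0% for Cre- and 71.8% for Tet tcKO, and the overlapping 5hmC losses stood at 19.7% and 5.25%. The remainder, WGBS minus bACE-seq, which stands for 5mC, came to 35.3% for Cre- and 66.5% for Tet tcKO. Because these regions were taken as WGBS gains on a 5hmC loss, the direction of this difference is fixed by their choice. The boundaries of the regions mostly differ between the lists, so the remainder mixes partly different CpGs.

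In 3 regions the boundaries were the same in both lists, and there the remainder refers to the same stretch. At Slc6a9 (−680 to −30 bp) it came to 29.6% for Cre- and 67.8% for Tet tcKO, and 5hmC made up 48.2% of the modified cytosine in Cre- and 9.75% in Tet tcKO. At Gad1 (18646 to 18859 bp) it was 32.8% and 68.4%, and the 5hmC share was 36.3% and 7.47%. At Chat (44320 to 44843 bp) it was 24.3% and 65.4%, and the 5hmC share was 29.7% and 0.856%.

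Over all overlapping gains of a gene, the 5hmC share of modified cytosine in Cre- was 41.8% at Slc6a9, 28.2% at Gad2, 27.1% at Chat, 25.1% at Gad1 and 22.1% at Tfap2a. The median over 15695 protein-coding genes with such regions was 31.0%, and the 10th and 90th percentiles were 19.2% and 52.1%, so all 5 genes lay within the middle range.

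**Figure D5:**
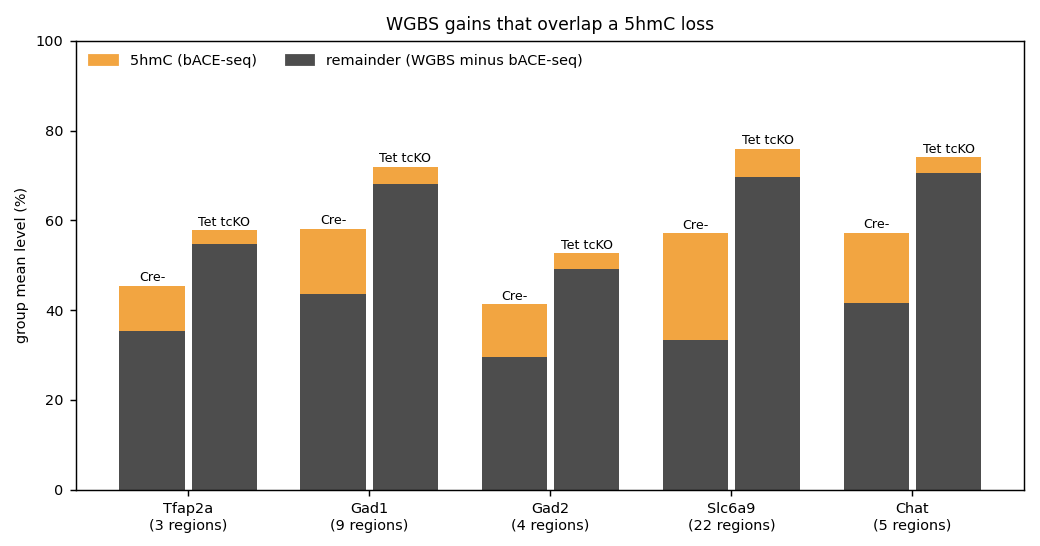
For the WGBS gains that overlap a 5hmC loss, bars from 0 show the group mean level (y axis, %) averaged over CpGs in Cre- (left bar) and Tet tcKO (right bar) of each gene, split into 5hmC from bACE-seq (orange) and the remainder of the WGBS level (grey). The number of regions stands under each gene, and no error bars are drawn because the lists hold group means only. The choice of regions fixes the direction of each difference, and the bars show its size, with 5hmC in Cre- between 10.0% at Tfap2a and 23.8% at Slc6a9.

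A further 31 genes known from amacrine cells were examined in the same way. Among them 28 (90.3%) had a WGBS gain and 30 (96.8%) a 5hmC loss, beside 76.8% and 88.3% of all protein-coding genes, and the median share of locus CpGs was 8.95% in gains and 29.2% in losses, beside medians of 8.11% and 25.7% over the 7 genes and 6.18% and 37.2% over all genes. Of 15 fate factors 14 had a gain, as had all 3 further genes of GABA handling, the glycine transporter gene Slc6a5, 2 of 3 genes of acetylcholine handling and 8 of 9 subtype markers. With 76.8% of all genes having a gain, groups this small show nothing particular to a role. The highest shares in gains were 34.1% at Neurod4 and 32.4% at Pax6, which encodes a master regulator of eye development. Prdm13, Slc5a7, which encodes the choline transporter, and Vip had no gain. Isl1, a factor of starburst amacrine cells, had no 5hmC loss. It is named after its value was seen, as are the next 2 genes. Lhx9 also had a WGBS region that was lower in Tet tcKO, which 4.90% of all genes had, and Neurod4 a bACE-seq region that was higher, which 0.401% of all genes had. Slc6a5, the neuronal glycine transporter GlyT2, had 5.06% of its CpGs in gains and 45.7% in losses, both below the 39.0% and 75.6% of Slc6a9. Slc18a3 shares its locus with Chat and is not a separate count of CpGs.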

How the data were processed

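WGBS and bACE-seq libraries from P21 retina were processed by the authors, who deposited 1 list of differentially methylated regions per assay on mm10. Per the submitters' processing notes the tools included Trim Galore 0.4.4, Bismark 0.18.2, Samtools 1.15.1, GATK 4.1.3 and MethylDackel 0.6.1, and the methods name DSS, with smoothing along the genome and an unadjusted p-value threshold, for calling regions between the groups. The authors' values used here are the deposited fractions, the mean methylation level of each group over a region, and are printed here as percentages. The columns are numbered, and column 1 was read as Cre- and column 2 as Tet tcKO from the order of the groups in the names of the lists. The lists also hold the authors' difference and summed statistic for each region, which were not used. Every region began and ended on a CpG of the reference, and the listed CpG number equalled the reference in 99.2% (WGBS) and 97.3% (bACE-seq) of regions. Each region holds at least 4 CpGs over at least 51 bp.

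Regions were joined to GENCODE M21 genes with 5 kb on each side and to the CpGs of GRCm38 (Python 3.11.15, pandas 2.3.3, numpy 2.4.6), and averages were weighted by CpG number. For each gene the region with the most CpGs, the one with the largest difference and those within 2 kb of the annotated 5′ end are described. Of the further amacrine cell genes, those with the highest and lowest shares of CpGs in WGBS gains are named, and 1 of them is not reported here. Interval code was tested on simulated regions. With group means only, no test was run, and coverage is unknown. The genes and gene lists were chosen with earlier results of these data known, and the stretches around the CpG-densest windows, the same-boundary Slc6a9 sequence and the motif were chosen after the values were seen. Each such stretch runs from the densest window to the nearest listed region on either side, so its extent and its lack of regions follow from that choice.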

Additional observations from a re-analysis of the deposited data

How the results depend on the processing

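No paired analysis was possible because the lists hold group means and no value per library, and for the same reason no library could be left out. Of 55 alternative values for 11 results, 20 stayed within their margin (a factor of 1.5 for counts, the exact binomial 95% interval for shares, and equality to the printed digits for mean levels), 35 moved and 0 reversed. A reversal was hardly possible, because only regions that point the way of their list were averaged, and counts and shares have no sign. Without the flank, 13.5% of locus CpGs were in WGBS gains, the mean differences were 16.1 (WGBS) and -13.0 (5hmC) points, and 25.9% of Cre- 5hmC was left. With a flank of 10 kb these were 11.1%, 16.6 points, -13.1 points and 25.5%. Regions of at least 10 CpGs numbered 20 in WGBS and 38 in bACE-seq, held 8.24% and 23.2% of CpGs, and gave -13.5 points and 26.3% left for 5hmC. Regions that differ by at least 10 points held 11.1% of CpGs in WGBS, with a mean of 17.3 points, and in bACE-seq numbered 41 with 19.7% of CpGs, a mean of -15.6 points and 26.2% left. At 20 points 12 WGBS regions remained with 2.75% of CpGs and a mean of 27.2 points, and 3 bACE-seq regions with 3.37%, -20.6 points and 27.8% left. With equal weight for each region the means were 16.1 and -9.85 points and 22.8% was left. Within 1 kb of the start, 2 genes had a WGBS gain. Over all genes the shares with a gain and a loss were 76.2% and 88.8% with long noncoding genes added, and 67.4% and 83.7% without the flank. Depth limits every level here to an unknown degree. Stretches outside the lists may have had too little coverage, or may have failed the authors' p-value threshold or minimum size.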
